A study of Drosophila melanogaster with 2 samples.

Results

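RhoGAP93B, Creld, Sry-alpha, CG4502, Pym, CG11857, CG2924 and Snx27 are 8 genes of Drosophila melanogaster whose starts lie nearest to some of the strongest nuclear peaks of Unc-4, out of 13968 protein-coding genes on the nuclear chromosomes. Chromatin immunoprecipitation sequencing (ChIP-seq) had been done on whole embryos aged 6 to 18 h of the strain unc-4-GFP, a transgenic line that expresses Unc-4 fused to eGFP, and the sample descriptions name an antibody against GFP for its recovery, while another label names unc-4 as the antibody. There was 1 group with 2 biological replicates, and every embryo carried the fusion, so no condition could be compared. The genes were chosen by the signal value that the authors' peak caller gave each peak in the pooled list of both replicates. They hold ranks 3, 4, 5, 7, 8, 9, 12 and 13 of its 4899 nuclear peaks. Signal values are therefore a description and were not tested. Whole embryos were used, so a peak does not show which cells carried it. Read depth is unknown, since peak lists hold no read counts.

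Unc-4 is a homeodomain transcription factor known from neurons, where it acts in choosing cell fates. A ChIP-seq peak marks a stretch of genome that was enriched in the recovered chromatin, and its summit is the position of highest enrichment. Many promoters of broadly used fly genes carry the DNA replication-related element (DRE), a palindrome read by the factor DREF. Its core TATCGA holds, on the opposite strand, the sequence CGATA read by the insulator protein BEAF-32.

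The 101 bp around the pooled summit are shown for 7 of the 8 genes because they hold what the rule did not use: a DRE core beside every summit. The sequences are from the Release 6 assembly (dm6), read 5′ to 3′ along the strand of the gene, with the summit at the middle base. Capitals mark TATCGA on either strand. The positions are chr3R:21097853-21097953 for RhoGAP93B (minus strand), chr2L:102302-102402 for Creld (plus), chr3R:30039633-30039733 for Sry-alpha (plus), chr2L:7204276-7204376 for CG4502 (minus), chr3R:25258771-25258871 for CG11857 (plus), chrX:2270762-2270862 for CG2924 (minus) and chrX:5738019-5738119 for Snx27 (minus).
RhoGAP93B: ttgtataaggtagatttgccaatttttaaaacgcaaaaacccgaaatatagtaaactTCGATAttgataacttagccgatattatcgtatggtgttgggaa
Creld: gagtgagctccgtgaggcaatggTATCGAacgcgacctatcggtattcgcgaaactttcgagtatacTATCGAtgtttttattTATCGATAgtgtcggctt
Sry-alpha: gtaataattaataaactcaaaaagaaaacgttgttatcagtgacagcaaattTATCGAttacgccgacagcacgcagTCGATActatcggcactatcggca
CG4502: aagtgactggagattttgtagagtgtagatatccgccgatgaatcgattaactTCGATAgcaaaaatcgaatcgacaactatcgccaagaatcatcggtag
CG11857: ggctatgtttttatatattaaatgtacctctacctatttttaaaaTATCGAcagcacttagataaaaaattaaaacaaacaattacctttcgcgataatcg
CG2924: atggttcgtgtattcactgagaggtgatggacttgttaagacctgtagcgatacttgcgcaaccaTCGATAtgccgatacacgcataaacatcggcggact
Snx27: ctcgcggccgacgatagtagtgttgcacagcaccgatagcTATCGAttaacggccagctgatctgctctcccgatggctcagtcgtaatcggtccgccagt

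All 8 summits, that of Pym included, had TATCGA on either strand within 50 bp. Over all nuclear peaks of the pooled list the share was 32.1% (1574 of 4899, 95% Wilson interval 30.8 to 33.5). In windows of the same 101 bp centred 45 bp upstream of the first start of each coding gene it was 18.0% (2517 of 13968). The centre of the nearest core lay between 2.5 bp (CG11857) and 40.5 bp (Pym) from the summit, with a median of 8.5 bp. Over the 1574 peaks with a core, that median was 16.5 bp. Creld had 4 cores, Sry-alpha and Pym 2 each, and the other members 1 each. The complete palindrome, which is 2 cores overlapping by 4 bases, was present at Creld and Pym alone, 2 of 8 against 13.6% of all nuclear peaks.

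The share of peaks with a DRE core did not rise steadily with signal. Because the members were chosen by signal, peaks of other ranks were set beside them. The 5 other peaks among the 13 strongest had the core in 5 of 5. It was present in 62.1% of ranks 14 to 100 (54 of 87), 62.8% of ranks 101 to 500, 64.4% of ranks 501 to 1000 and 24.0% of ranks 1001 to 4899. Of the 20 strongest nuclear peaks, a number chosen after seeing the data, 16 had it, and the 4 without were at ranks 17 to 20. Peaks are not replicates, and the intervals cover counting error only.

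**Figure D1:**
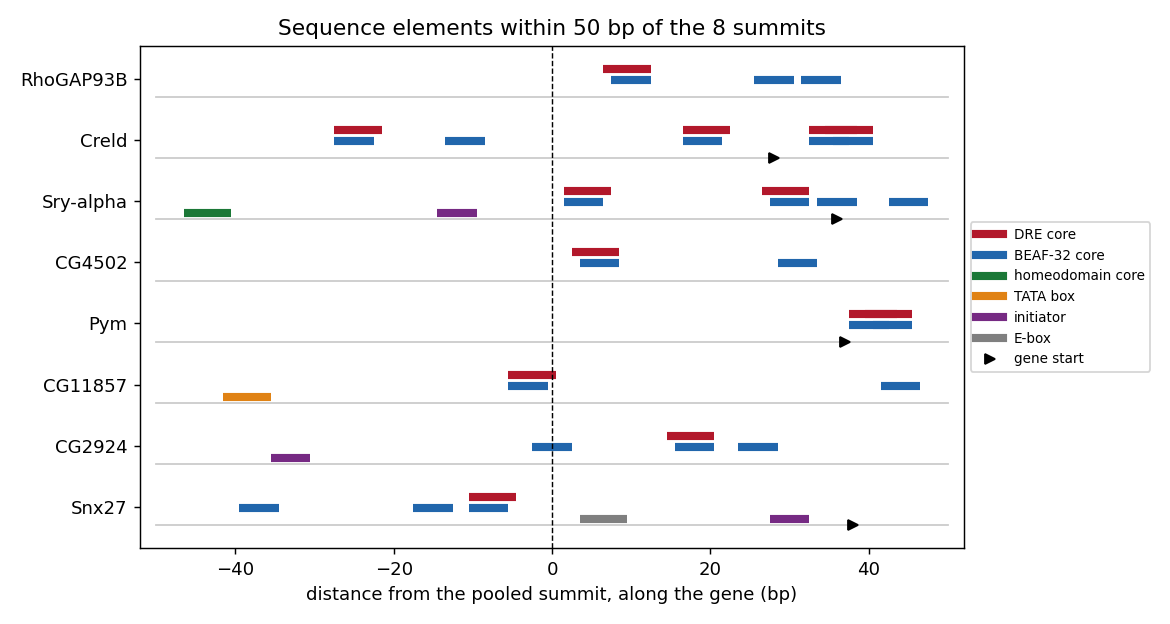
Sequence elements within 50 bp of the pooled summit of each gene, in bp along the gene, with the summit at 0 and the start of the gene as a black triangle where it falls inside the window. The DRE core is present at all 8 summits and by its sequence holds the BEAF-32 core, while the other elements are at 3 genes or fewer.

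Of the other 7 elements searched on either strand, CGATA was in all 8 windows. Every TATCGA holds it, so this count follows from that of TATCGA and is no second result. It was in 44.4% of all nuclear peaks and in 28.7% of the windows at coding gene starts. With the matches inside TATCGA included, Creld had 5 matches and Sry-alpha 4. RhoGAP93B, CG2924 and Snx27 had 3 each, and CG4502, CG11857 and Pym 2 each. The homeodomain core TAATTA was at Sry-alpha alone, 43.5 bp from the summit, against 5.74% of all nuclear peaks. The initiator core TCAGT was in 3 windows (Sry-alpha, CG2924 and Snx27). It was in 16.6% of all nuclear peaks and in 26.3% of the windows at coding gene starts. The TATA box TATAAA was in 1 (CG11857), against 12.3% and 19.6%, and the E-box CAGCTG in 1 (Snx27), against 9.78% and 7.95%. The TCAGT of CG2924 and the TATAAA of CG11857 were on the strand opposite to the gene. No match is shown to act as the initiator or TATA box of its gene. No window held GTCACAC, the core of the promoter element called motif 1 (4.69% of all nuclear peaks), or GAGAGA, read by GAGA factor (6.80%). The absence of a match says only that these letters are not in the window. Base composition varied widely among the members, from 26.7% G and C at CG11857 to 57.4% at Snx27, and their median of 42.6% was that of all nuclear peaks.

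**Figure D2:**
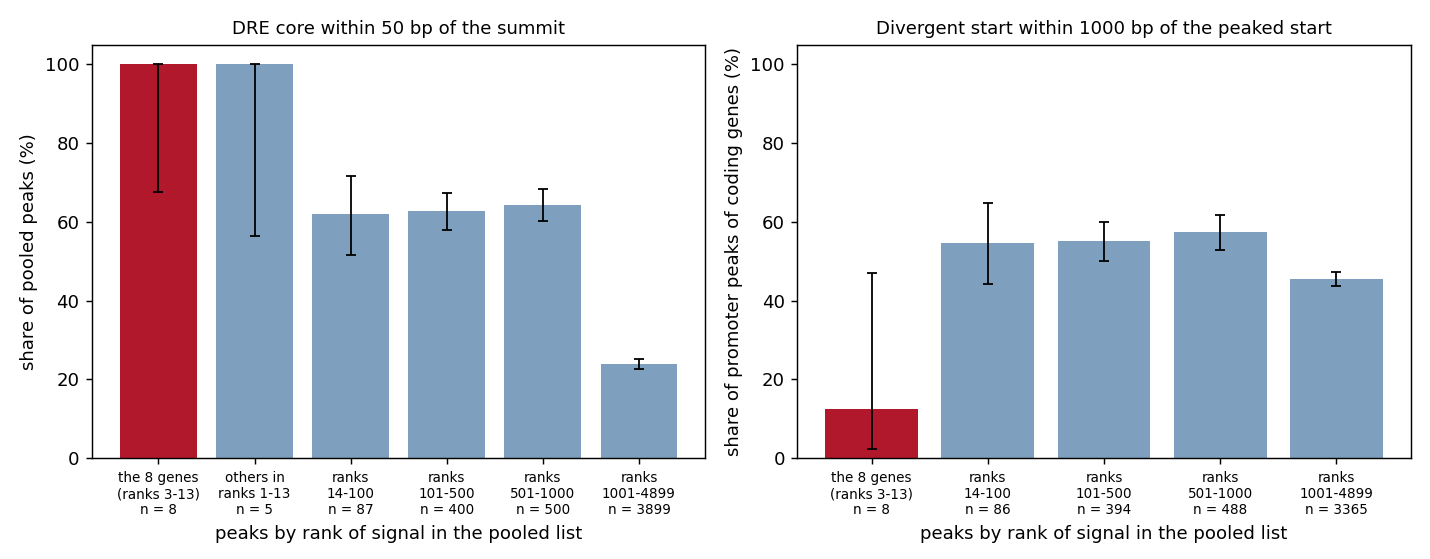
Share of pooled peaks with a DRE core within 50 bp of the summit (left) and share of promoter peaks of coding genes with a divergent start within 1000 bp (right), by rank of signal, with 95% Wilson intervals as bars. The 8 genes stand at 100% for the core and at 12.5% for a divergent start, and ranks 14 to 100 at 62.1% and 54.7%. The 5 other peaks of ranks 1 to 13 are shown for the core, also at 100%, and are left out at the right.

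The summits lay just upstream of the start in every list. In the pooled list all 8 were between 28 bp (Creld) and 77 bp (CG11857) upstream, with a median of 44.5 bp. Over the 4526 nuclear peaks within 1000 bp of a start, 68.3% of summits were upstream of the nearest start, 46.4% were 1 to 100 bp upstream, and the median distance was 66 bp. The member summits were also upstream in all 8 cases in the conservative list, in replicate 1 and in replicate 2, at medians of 44.5, 40 and 46.5 bp. Replicate summits differed by 2 bp at RhoGAP93B and Creld, 6 bp at CG4502, 7 bp at CG2924 and Snx27, 8 bp at Pym, 12 bp at Sry-alpha and 37 bp at CG11857. Their median gap was 7 bp, against 21 bp (quartiles 8 and 43) over the 2729 pooled peaks that overlapped a thresholded peak in both replicates. Those peaks are of all signals, while the members were chosen by signal. Peaks of like signal were not set beside them.

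**Figure D3:**
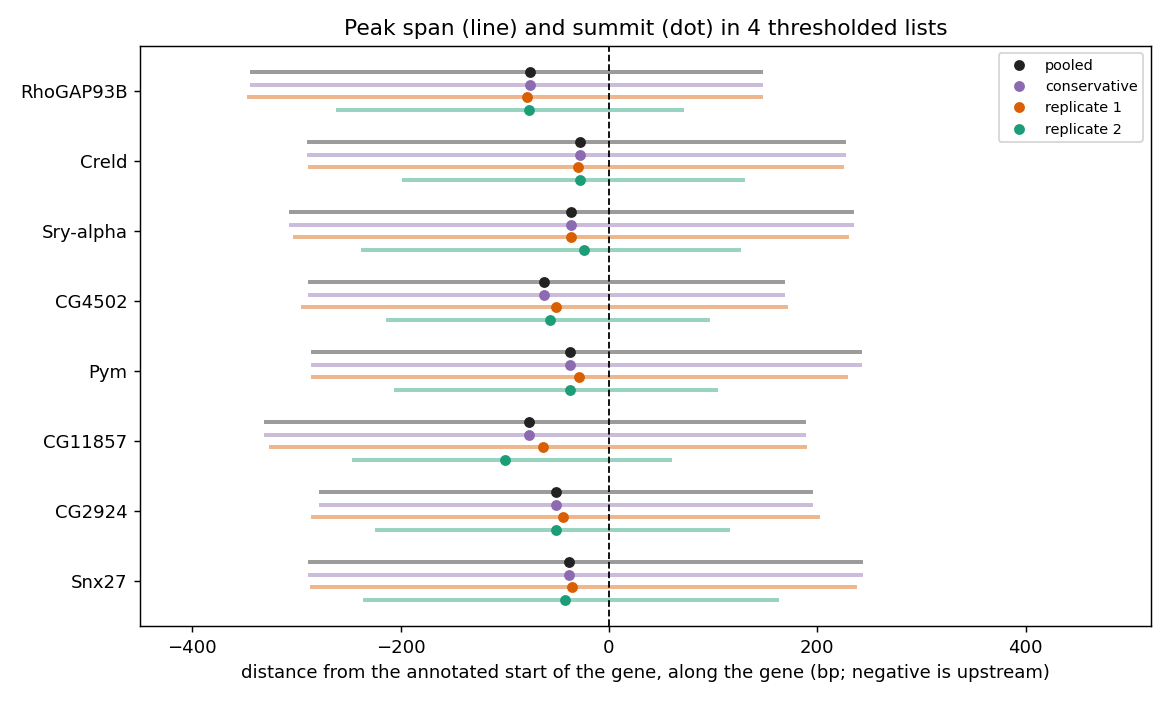
Peak span (line) and summit (dot) of each gene in the pooled, conservative and replicate lists, in bp from the annotated start along the gene. All 32 summits lie 24 to 100 bp upstream of the start, and the lines of replicate 2 are the shortest.

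Every member peak was single and held the top marks of its list. All 8 were overlapped by 1 peak in each of the 4 thresholded lists, where 55.7% of all nuclear pooled peaks overlapped a peak in both replicates. The members were chosen by a signal drawn from the same replicates, and the 55.7% includes weak peaks. Presence in both replicates is therefore a description only. In the conservative list the same 8 intervals appeared with the same signals and the same ranks as in the pooled list. All 8 had a score of 1000, the maximum, in every list, as did 82.8% of nuclear pooled peaks, so the score does not set them apart. The −log10 q value was also at its ceiling, 2.78 in the pooled list, for all 8 and for 63.7% of nuclear pooled peaks. Widths ran from 455 bp (CG4502) to 539 bp (Sry-alpha) in the pooled list and from 305 to 396 bp in replicate 2. None had the most frequent width of its list, which was 516 bp for 57.4% of nuclear pooled peaks.

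The highest of the 8 signals was at RhoGAP93B (FBgn0038853, 3R:21083043-21097827, minus strand), also called vilse or CrossGAP, which encodes a GTPase-activating protein that acts downstream of Robo in axon repulsion. Its signal was 1438 in the pooled list, with 1004 and 432 in replicates 1 and 2, and values can be compared only within a list. These were 13.4, 8.67 and 6.82 times the nuclear median of each list, the highest multiple of the 8 in each list. The rank was 3 in replicate 1 and 2 in replicate 2. The summit lay between the end of CG7044, 402 bp upstream on the same strand, and the start of RhoGAP93B. No other pooled peak lay within 10 kb. The start of CG7044, 3815 bp from the summit, had no peak, nor had those of Tbc1d22, lncRNA:CR44178 and asRNA:CR46045.

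Creld, CG11857 and Snx27 act in the membrane system of the cell. Creld (FBgn0031217, 2L:102380-104142, plus strand) encodes a protein with cysteine-rich EGF-like domains, of a family found in the endoplasmic reticulum. The signal at its start was 1308 in the pooled list, with 872 and 432 in replicates 1 and 2, at ranks 4, 7 and 3. The upstream gene Zir ended 294 bp before the start, on the same strand. Downstream, a pooled peak of 80.4 lay at Nhe1, a sodium and proton exchanger gene whose start is 4380 bp from the summit, and no thresholded replicate list had a peak there. A pooled peak of 117 lay 5714 bp from the summit at Sam-S, the S-adenosylmethionine synthetase gene. The Creld signal was 16.3 and 11.2 times these.

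CG11857 (FBgn0039303, 3R:25258898-25260759, plus strand) is the fly relative of RER1, which in yeast returns escaped membrane proteins from the Golgi to the endoplasmic reticulum. Its signals were 1225 in the pooled list, with 867 and 357 in replicates 1 and 2, at ranks 9, 8 and 8. The summit was the least fixed of the 8, at 63 bp upstream of the start in replicate 1 and 100 bp in replicate 2. Nup358, a nuclear pore gene, ended 226 bp upstream on the same strand. Its own peak, 9522 bp from the CG11857 summit, had a signal of 628, and another at RIOK2, 6973 bp downstream, had 671. Within 5 kb the only further peak was one of 129 nearest to CG11858, which overlapped a thresholded peak in replicate 1 and none in replicate 2. The starts of Kdsr, an enzyme gene of sphingolipid synthesis, and of asRNA:CR46099 within 5 kb had no peak of their own.

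Snx27 (FBgn0052758, X:5719374-5738031, minus strand) encodes a sorting nexin that works with the retromer complex to recycle cargo from endosomes. Its pooled signal of 1117 was the lowest of the 8, with 788 in replicate 1 and 330 in replicate 2, at ranks 13, 14 and 12. IntS6, a subunit gene of the Integrator complex, ended 632 bp upstream on the same strand. No other gene had a start within 5 kb of the summit, and no other peak lay there. The annotation gives Snx27 a second start 14461 bp downstream. No summit of any thresholded list was closer to that start than the one at the first start. The nearest summits in the ranked lists, which hold weak peaks as well, were 7556 bp away in replicate 1 and 1652 bp away in replicate 2.

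CG4502 and CG2924 both belong to the family of ubiquitin-conjugating enzymes, which pass ubiquitin on to proteins with the help of ligases. CG2924 carries the synonym NICE5 and is related to human UBE2Q1. CG4502 (FBgn0031896, 2L:7194908-7204264, minus strand) had signals of 1238 in the pooled list, with 876 and 366 in replicates 1 and 2, at ranks 7, 6 and 5. CG2924 (FBgn0023528, X:2264657-2270761, minus strand) had 1156, 836 and 320, at ranks 12, 10 and 13. CG4502 was the higher of this pair in each list. CG13784 ended 274 bp upstream of CG4502 on the same strand, and no other gene had a start within 5 kb. Grp170, an endoplasmic reticulum chaperone gene, ended 247 bp upstream of CG2924 on the same strand, and its start held a peak of 385.

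CG2924 has a second start 1044 bp downstream of the first. In the 4 thresholded lists the summit nearest to it was that of the first start. In both replicates' ranked lists a weak peak covered it with the summit 46 bp upstream, with signals of 9.65 at rank 20026 of 21280 in replicate 1 and 12.9 at rank 15841 of 45920 in replicate 2. Those lists are long: 42.7% of coding gene starts lay inside a peak of the first and 44.6% inside one of the second. The noncoding gene lncRNA:CR45480 starts 279 bp upstream of that second start on the opposite strand and had no peak of its own.

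Pym (FBgn0034918, 2R:23855954-23856936, minus strand) encodes the partner of Y14 and Mago, which takes apart the exon junction complex left on spliced mRNA. No sequence is shown for it. The signals at its start were 1230 in the pooled list, with 867 and 365 in replicates 1 and 2, at ranks 8, 9 and 6. Of the 8 members only Pym had its summit inside another gene, in an intron of bgcn, a regulator of germ cell differentiation that surrounds Pym on the same strand. The start of bgcn, 1948 bp from the summit, had a peak of 154 in the pooled list and one in each replicate. The Pym signal was 7.99 times as high. The nearest gene lying wholly upstream was TBPH, 2131 bp away on the same strand. Within 10 kb there were 6 other pooled peaks, the strongest of 315 at Cpes.

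Sry-alpha (FBgn0003510, 3R:30039719-30043071, plus strand) is known for actin assembly when the early embryo forms cells, and its peak could be given to another gene as well. The annotation lists a long transcript of Sry-alpha with the same start and end as Sry-beta (FBgn0003511), a zinc finger gene, so the summit was 36 bp from the start of both genes. Sry-alpha also has its own start 1498 bp further on. No thresholded list had a summit within 1 kb of that start, and in the ranked lists the nearest summits were 473 bp downstream with a signal of 19.8 in replicate 1 and 435 bp upstream with 5.72 in replicate 2. Neither peak covered the start. The strong peak had signals of 1279 in the pooled list, with 955 and 314 in replicates 1 and 2, at ranks 5, 4 and 14. Relative to the list median it was 8.24 times in replicate 1 and 4.95 times in replicate 2. The ratio between these, 1.66, was the highest of the 8. It ranged from 1.10 to 1.43 in the other members and had a median of 1.28 (quartiles 1.01 and 1.55) over the 2729 peaks overlapped in both replicates.

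The surroundings of Sry-alpha were the most crowded of the 8, with the starts of 7 other genes within 5 kb. janA starts 186 bp and janB 991 bp from the Sry-alpha start on the opposite strand, pointing away. The Sry-alpha peak covered the janA start, 150 bp from its summit, and the janB start was 955 bp from that summit. Both are within 1000 bp, but the Sry-alpha start was nearer, so neither is counted as having a peak of its own. The starts of ocn, a gene known from the testis, and of asRNA:CR44045 had no peak of their own either. Sry-delta, another zinc finger gene, had a peak of 308 with its summit 1 bp upstream of the start, and ZIPIC, which encodes a zinc finger protein of insulators, had one of 140. RpL32, a ribosomal protein gene, held the tenth strongest nuclear peak (1162) 6550 bp downstream of the Sry-alpha summit. A pair of the 10 strongest nuclear peaks thus lay within 6550 bp of each other.

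**Figure D4:**
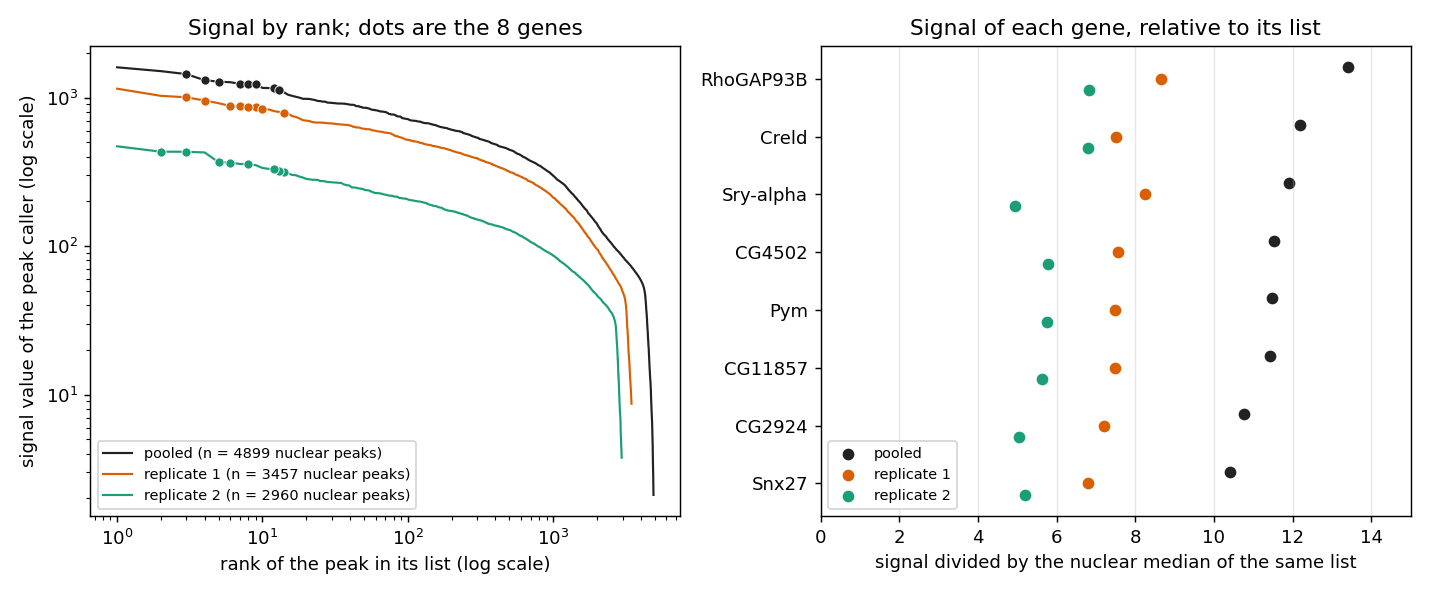
Signal by rank in the pooled and replicate lists on log axes, with the 8 genes as dots (left), and the signal of each gene divided by the nuclear median of its list (right). The 8 genes lie between 10.4 and 13.4 times the median in the pooled list, 6.80 and 8.67 in replicate 1, and 4.95 and 6.82 in replicate 2.

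Few of the members faced a divergent gene. By any of its starts, a member had a divergent start within 1000 bp in 2 of 8 cases, Sry-alpha and CG2924, against 39.6% of coding genes (5527 of 13968). At the start that held the peak it was 1 of 8, Sry-alpha alone (12.5%, 95% Wilson interval 2.24 to 47.1). Over 4346 promoter peaks nearest to a coding gene the share was 47.9% (46.4 to 49.4), and in ranks 14 to 100 it was 54.7% (47 of 86). In 7 of 8 members the nearest gene lying wholly upstream was on the same strand (87.5%, 52.9 to 97.8). That share was 40.9% over all these promoter peaks and 39.5% in ranks 14 to 100. At Pym the summit was inside bgcn. At all 7, Pym included, the summit stood between the end of the upstream gene and the start of the member. The gap to that gene was 186 to 2131 bp, with a median of 284 bp, against 412 bp (quartiles 234 and 1060) over all promoter peaks and 324 bp in ranks 14 to 100. The 5 other peaks of ranks 1 to 13 were not counted apart, so these shares do not speak for the strongest peaks as a whole. With 8 members these shares describe the members, and no test of the difference was made.

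**Figure D5:**
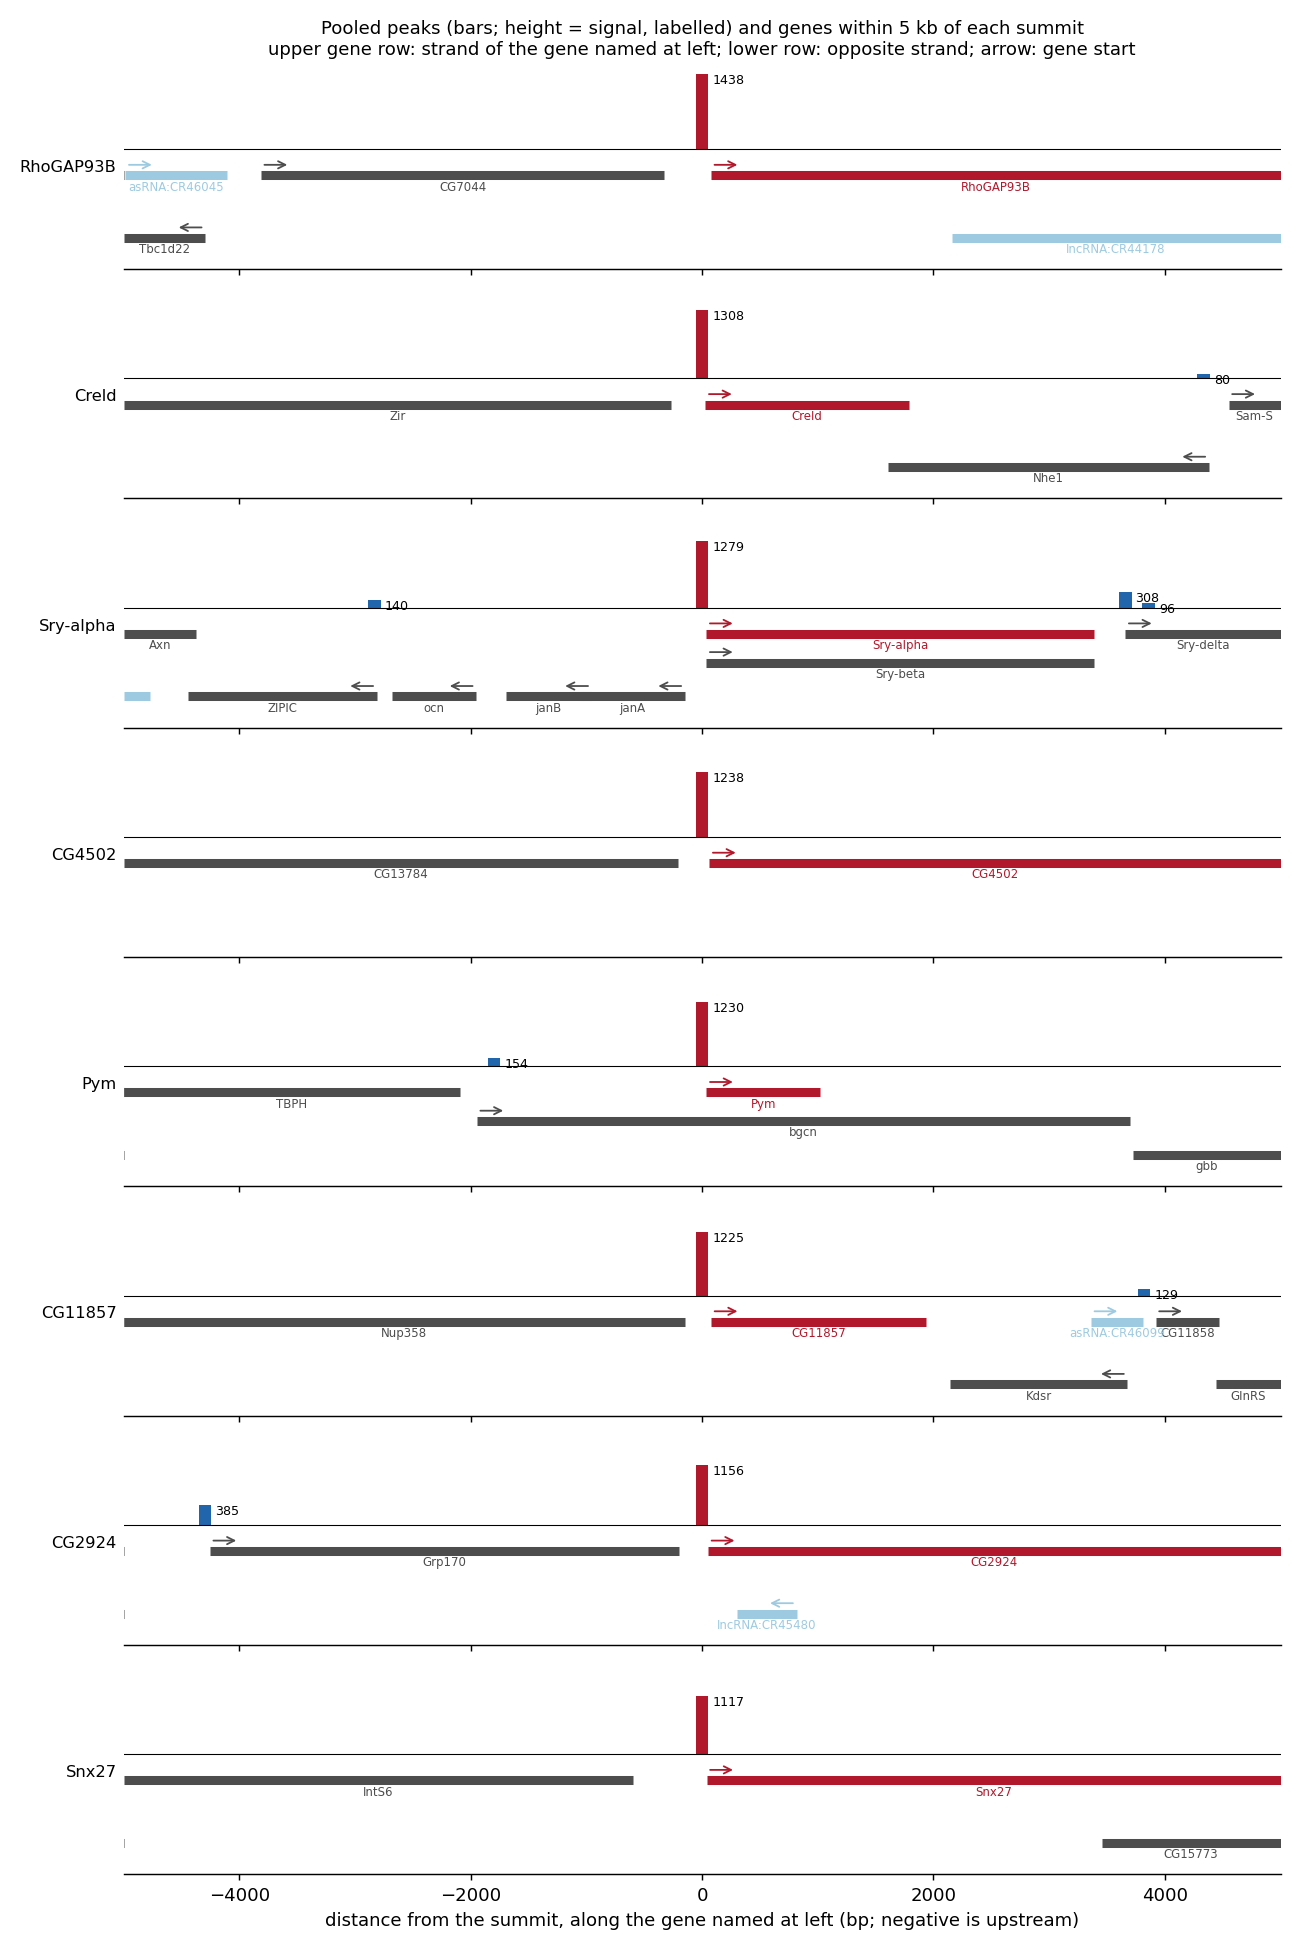
Pooled peaks (bars, height and label give the signal) and annotated genes within 5 kb of each summit, in bp along the gene named at the left; that gene is red, other coding genes grey and noncoding genes light blue. The member peak is the tallest bar in each window, and the Pym peak stands inside bgcn.

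Within 5 kb of the summits, 19 other genes had a start, of which 14 were coding. Peaks nearest to a start of the gene were present at 7 of them (Sam-S, Nhe1, ZIPIC, Sry-delta, bgcn, CG11858 and Grp170), with signals from 80.4 to 385. Sry-beta shared the member peak. The Sam-S start within 5 kb was 4551 bp from the Creld summit, but the Sam-S peak, 5714 bp from it, lay at another start of that gene. Over all coding genes, 35.9% had a summit within 1000 bp of a start. That share leaves out noncoding genes and does not ask for the start to be the nearest, so it is no measure for the 7. Under its rule janA and janB, 150 and 955 bp from the Sry-alpha summit, would also count. RhoGAP93B, CG4502 and Snx27 had no other pooled peak within 5 kb. The remaining 5 genes had 1 each, except Sry-alpha with 3.

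The genes ranked beside the members were of other kinds. mtSSB, a mitochondrial DNA-binding protein gene (1598), and Rpn6, a proteasome lid gene (1506), ranked above RhoGAP93B. Nrg (1269) at rank 6, RpL32 (1162) at rank 10 and Prosalpha7 (1158) at rank 11 stood among the members. Just inside the range was Snx27 at 1117, and just outside it was MESK2 at 1087.

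Of 74 known partners and relatives of the members in 7 lists, the members left out, 43 (58.1%) had a summit within 1000 bp of a start, against the 35.9% of all coding genes, and 31 had none. The 43 include Sry-beta, whose peak is the member peak itself, and RhoGAP71E and CG7656, which are counted through the same peak. Where the partner's own start also had to be the nearest, the count was 34, and the 35.9% does not ask for that. Because the members were chosen by signal, their own values are no measure against those of the partners. Of 9 genes of the exon junction complex and nonsense-mediated decay, 7 had a peak. The highest were 510 at Acn, 425 at CG7483, which encodes eIF4AIII, 389 at mago, where Tmtc3 was nearer to the summit, and 372 at Upf1. tsu, which encodes Y14, had 213, and btz and RnpS1 had none.

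Of 13 other RhoGAP genes, 9 had a start peak, the highest being 466 at RhoGAP68F, where ND-SGDH was nearer to the summit, 427 at RhoGAPp190, 393 at RhoGAP19D and 302 at RhoGAP1A. RhoGAP102A and RhoGAP16F were among the 4 without. Of 29 other ubiquitin-conjugating enzyme genes, 16 had one, led by eff (821, nearer to jvl), Ubc4 (459), Ubc7 (443) and Ubc2 (335), while ben and CG10254 were among those without. Of 10 genes of the retromer and the sorting nexins, 5 had one. These included the retromer subunit genes Vps29 (383) and Vps35 (272), SH3PX1 (262, nearer to vsg) and Snx6 (200), while Snx1 and Snx17 had none. Of 7 genes of retrograde transport to the endoplasmic reticulum, 4 had one, at gammaCOP (566), KdelR (347), epsilonCOP (261) and betaCOP (55.6), and alphaCOP and deltaCOP had none.

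Genes that act with Sry-alpha when cells form, nullo, bnk, slam and dunk, had no start peak in the pooled list. This was 0 of 4, against 35.9% of all coding genes, and so few genes allow a description only. Of the zinc finger genes of the serendipity cluster, Sry-delta had a peak of 308, and Sry-beta is counted only through the peak it shares with Sry-alpha.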

How the data were processed

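Binding of the tagged Unc-4 protein was measured by ChIP-seq in 2 replicates of 1 group; libraries named as possible controls were not analysed here. Chromatin had been sonicated, and its size range is given as 200 to 800 with no unit. Per the labels the antibody is named unc-4 in one field and anti-GFP in another. The authors deposited peak lists on dm6, per the file descriptions, ordered or filtered by irreproducible discovery rate. The 4 thresholded lists (pooled, conservative, 1 per replicate) and the 2 replicates' ranked lists were used. Each deposited list gives a signal value per peak, on a scale not stated, a score of at most 1000, the −log10 of a q value and the summit offset. Caller, aligner and their settings: not given in the sources used here. The 2 series-wide ranked lists, with 16 columns of per-replicate values, were not used.

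Mitochondrial peaks, scaffolds and transposable elements were left out. Starts came from Ensembl 115 (BDGP6.54) and sequence from the Release 6 genome, the build of the lists. Each member's peak was the pooled peak with the summit nearest to one of its starts. In another list it was the overlapping peak (at least 1 bp) of highest signal. A start peak is a summit within 1000 bp of a start. For a neighbour with a start within 5 kb, a start of that gene, not always the same one, also had to be the nearest. A divergent start is one within 1000 bp on the opposite strand, pointing away. Of the partner names, 1 (betaprimeCOP) was not matched. Intervals are 95% Wilson intervals (SciPy 1.17.1, Python 3.11.15). Nearest-start and motif searches were tested on simulated data. No test was run: members were chosen by signal, and there is 1 group. Named genes were the members, neighbours with a start within 1000 bp of a member start or a peak of their own, pooled ranks 1 to 14, and up to 4 partners with the highest signal and 2 without a peak in each list; other names were added after their values were seen. The members and lists were chosen with earlier results of these data known.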

Additional observations from a re-analysis of the deposited data

How the results depend on the processing

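Over 8 results, 29 alternatives were computed. With coding partners alone, 1 member in place of 2 had a divergent start, and within 5000 bp it was 3. In a window of 2000 bp around the summit, 1 other gene in place of 7 had its own start peak, since the window is smaller, and without replicate 1 it was 5. The lowest percentile of a member's signal was 99.7 in the pooled list and 99.5 to 99.6 when a replicate was left out. All 8 members kept a DRE core and an upstream summit in each replicate alone. The median summit distance was 40 bp without replicate 2 and 46.5 bp without replicate 1. Starts from RefSeq, an alternative chosen after seeing the data, gave the same 44.5 bp. Partner genes with a start peak numbered 30 without replicate 1 and 36 without replicate 2, against 43. Where the start also had to be the nearest, they numbered 34. The replicate lists are shorter than the pooled list. No share of all coding genes is given for these alternatives, so the changes are a description. No paired analysis was possible because there is 1 group. Depth is unknown, so weak peaks at other starts cannot be weighed.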

Other observations

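A search of all six-mers, made after the windows had been read, gave 6 that were within 50 bp of the summit of at least 5 members. TATCGA was in 8 of 8. ATCGAT, the middle of the palindrome, was in 6 of 8 (28.0% of nuclear pooled peaks), and CGATAG (24.5%), CGATAA (19.4%), CCGATA (10.9%) and CGATTA (9.59%) were in 5 each. All but CGATTA and ATCGAT hold the BEAF-32 core CGATA, so they are not independent of it. Because the six-mers were picked on these 8 windows, the counts are a description.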
